A study of Macaca mulatta with 43 samples.

Results

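Expression of 4 genes that handle adenosine was followed in the medial prefrontal cortex of rhesus macaques after long ethanol self-administration. They are ADK (adenosine kinase), SLC29A1 (the equilibrative nucleoside transporter ENT1), NT5E (ecto-5′-nucleotidase, or CD73) and ADORA1 (the adenosine A1 receptor), out of 13705 gene symbols tested. All probesets to which the platform's probe table assigns one of these symbols and no other were taken, which gave 8 probesets out of 24151 tested: 2 for ADK, 2 for SLC29A1, 3 for NT5E and 1 for ADORA1. Each of the 8 passed the filter on low values. The genes were chosen with the ethanol against control values of these same arrays known, so their levels in that comparison are given as a description, with standard errors and without a test.

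The animals were adult male rhesus macaques of 5 to 11 years, with 1 Affymetrix array per animal and RNA pooled over Brodmann areas 24, 25 and 32. The 32 drinkers were induced to drink by schedule-induced polydipsia and then had 4% (w/v) ethanol and water freely available for 22 hours a day during 1 year. The 11 controls received a maltose dextran solution with the calories of a matched drinker, and water. Cohort 4 held 11 drinkers and no control, cohort 5 held 8 drinkers and 5 controls, cohort 7a held 8 drinkers and 4 controls, and cohort 7b held 5 drinkers and 2 controls. Values are RMA expression values on the log2 scale, so a difference of 1 is a doubling, and a level of one probeset cannot be set against that of another. The number of arrays, above all of controls, limits the precision.

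Adenosine is released by cells and is also made outside them from ATP, and it slows neurons mainly through the A1 receptor. CD73 makes adenosine from AMP at the cell surface, ENT1 lets it cross the membrane down its gradient, and adenosine kinase turns it back into AMP inside the cell, which in the adult brain takes place largely in astrocytes. ENT1 is known as a direct target of ethanol, which inhibits uptake through it, and mice without it drink more ethanol.

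RNA of cohorts 4 and 5 was extracted with the RNeasy Mini kit, and that of cohorts 7a and 7b with an All Prep DNA/RNA/miRNA kit. Arrays of cohorts 4 and 5 were processed in 3 batches and arrays of cohorts 7a and 7b in 5 others, 1 of which held no control. Cohort, RNA kit and batch therefore cannot be told apart between these sets. RNA quality was read from beta-actin, as its 3′ minus its 5′ probesets. Its mean was 1.10 in drinkers and 0.78 in controls of cohort 7b, 1.26 in drinkers and 0.82 in controls of cohort 7a, and 4.54 in drinkers and 4.50 in controls of cohort 5. In cohort 7a it ran from 0.93 to 1.60 in drinkers and from 0.76 to 0.87 in controls, without overlap. A fit with it as a covariate therefore compares no drinker and control of like value there. In cohort 7b drinkers and controls overlapped, at 0.76 to 1.71 and 0.75 to 0.81. The same value of GAPDH was 0.91 in drinkers and 1.05 in controls of cohort 7b, 1.27 in drinkers and 1.08 in controls of cohort 7a, and 2.31 in drinkers and 2.23 in controls of cohort 5. Some markers of neurons and glia were bright, with means from 12.07 to 13.37 for SYT1, GAD1, SLC1A2 and MBP, beside array medians near 6.75 to 6.98. Other neuronal and glial markers lay lower, such as SLC17A7 at 8.30, SOX9 at 6.04 and CX3CR1 at 4.73. Since levels of different probesets cannot be set against each other, these values do not measure cell content.

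ADK was lower in drinkers than in controls in cohorts 7a and 7b and close between the groups in cohort 5. Both of its probesets showed this. For MmugDNA.35791.1.S1_at, cohort 7b drinkers measured 8.34, 8.48, 8.20, 8.13 and 8.28, against 9.22 and 9.12 in the cohort 7b controls. Cohort 7a drinkers ranged from 8.15 to 8.38 with a median of 8.28, against 8.69, 8.59, 8.79 and 8.85 in the cohort 7a controls. Cohort 5 drinkers ranged from 8.32 to 8.72 with a median of 8.48, against 8.61, 8.39, 8.79, 8.56 and 8.43 in the cohort 5 controls. Every drinker of cohorts 7a and 7b lay below every control of these cohorts (13 against 6 animals), while in cohort 5 only 1 of 8 drinkers lay below all controls. The log2 difference, drinkers minus controls, was -0.88 (SE 0.11) in cohort 7b, -0.45 (SE 0.077) in cohort 7a and -0.059 (SE 0.072) in cohort 5, which is 1.84-fold, 1.36-fold and 1.04-fold lower. Cohort 4 drinkers, for which there is no control, ranged from 8.33 to 8.76 with a median of 8.57.

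The second ADK probeset, MmugDNA.26017.1.S1_at, separated the same groups. Its cohort 7b drinkers measured 7.84, 7.51, 7.96, 7.50 and 7.77, against 8.64 and 8.54 in the controls. Its cohort 7a drinkers ranged from 7.56 to 7.93 with a median of 7.66, against 8.40, 8.22, 8.28 and 8.21 in the controls. Again no drinker of cohort 7a or 7b reached a control of either cohort. Cohort 5 drinkers ranged from 7.20 to 7.47 with a median of 7.44, against 7.30, 7.50, 7.57, 7.63 and 7.32 in controls, and these overlapped. The differences were -0.87 (SE 0.105) in cohort 7b, -0.58 (SE 0.077) in cohort 7a and -0.059 (SE 0.072) in cohort 5. With the actin value as a covariate the cohort 7b and 7a differences were -0.74 (SE 0.087) and -0.41 (SE 0.071) for this probeset, and -0.90 (SE 0.11) and -0.47 (SE 0.090) for the first.

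**Figure D1:**
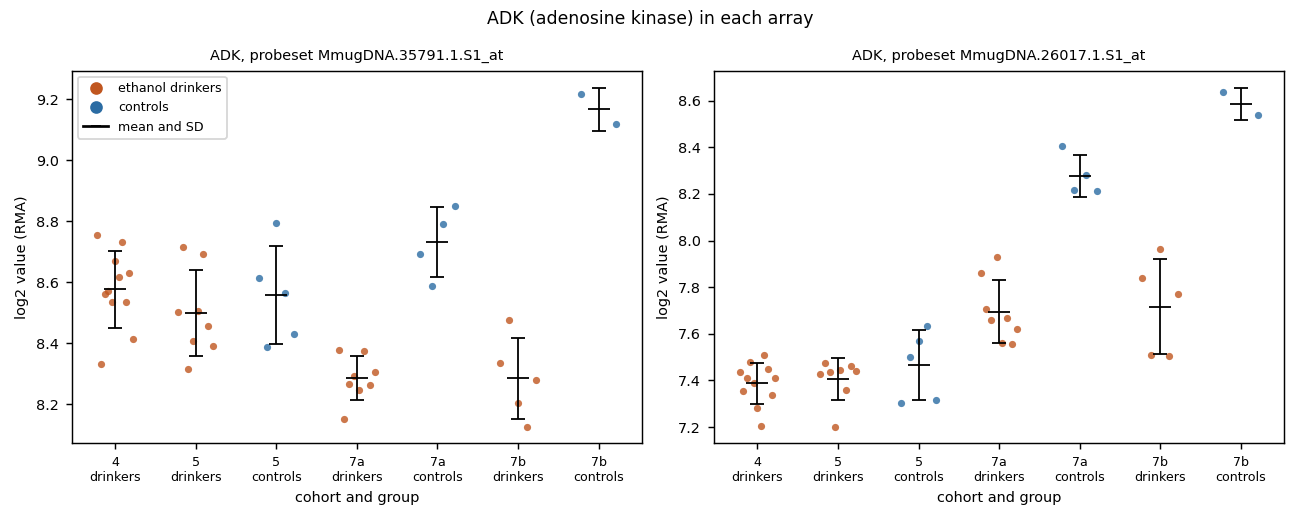
Log2 RMA value (y axis) of both ADK probesets in each array (points), by cohort with drinkers left of controls (x axis), with bars for the mean and SD. The controls of cohorts 7a and 7b exceed every drinker of these cohorts in both panels, from 8.59 to 9.22 on the left and from 8.21 to 8.64 on the right. On the left some drinkers of cohorts 4 and 5 reach the level of these controls, up to 8.76 and 8.72.

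Set side by side over the 7 groups, the mean of MmugDNA.35791.1.S1_at was 8.28 ± 0.13 in cohort 7b drinkers (SD, n = 5), 8.28 ± 0.07 in cohort 7a drinkers (n = 8), 8.50 ± 0.14 in cohort 5 drinkers (n = 8) and 8.58 ± 0.13 in cohort 4 drinkers (n = 11). It was 9.17 ± 0.07 in cohort 7b controls (n = 2), 8.73 ± 0.11 in cohort 7a controls (n = 4) and 8.56 ± 0.16 in cohort 5 controls (n = 5). The drinkers of cohorts 4 and 5 and the controls of cohort 5, which stand next to each other in this order, differed by less than their SDs. For MmugDNA.26017.1.S1_at the drinkers of cohorts 7a and 7b stood at 7.69 ± 0.13 and 7.72 ± 0.20, above the drinkers of cohorts 4 and 5 at 7.39 ± 0.09 and 7.41 ± 0.09. The 2 probesets thus placed these drinkers on opposite sides of those of cohorts 4 and 5, and both placed the controls of cohorts 7a and 7b highest. Within groups they moved little together, with r = 0.096 over 43 arrays after each group's mean was taken off (a description across arrays that share batches).

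**Figure D2:**
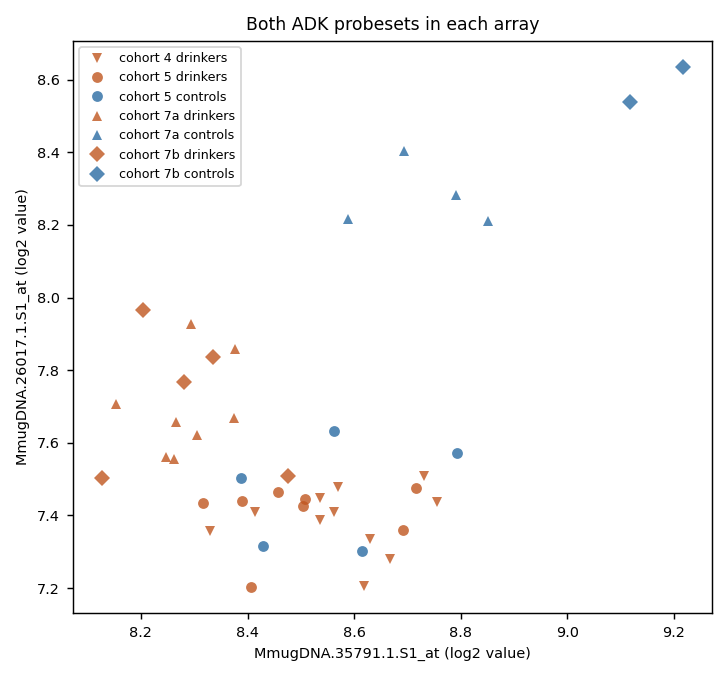
Log2 value of ADK probeset MmugDNA.35791.1.S1_at (x axis) against that of MmugDNA.26017.1.S1_at (y axis) in each of the 43 arrays, by cohort (symbols) and treatment (colors). The 6 controls of cohorts 7a and 7b stand apart at upper right, at 8.59 or more on the x axis and 8.21 or more on the y axis.

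Within the processing batches the picture of ADK was the same. In each of the 4 batches of cohorts 7a and 7b that held drinkers and controls, drinkers averaged lower. The differences were from -0.91 to -0.28 for the first probeset and from -0.92 to -0.46 for the other. These batches held the cohorts unevenly. Batch 7, with the largest difference for each probeset, set 3 drinkers of cohort 7a against 1 control of cohort 7b. In batches 1 to 3 the differences ran from -0.21 to 0.032 and from -0.18 to -0.0041. Over all 43 arrays the differences were -0.29 (SE 0.070) and -0.44 (SE 0.10), and with batch as a block they were -0.29 (SE 0.068) and -0.37 (SE 0.071). With cohort as a block and the actin value as a covariate they were -0.34 (SE 0.074) and -0.28 (SE 0.061). For the first probeset the all-array difference was -0.23 (SE 0.081) once arrays were centered on their median, and there it was no longer past an adjusted p of 0.05 in limma.

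Markers of some other cells moved in the same cohorts, and this is bulk tissue, in which fewer cells of a type and less RNA per cell cannot be told apart. Of 28 measured markers, 6 were higher and 6 lower in cohort 7b, and 1 was higher and 4 lower in cohort 7a (limma adjusted p under 0.05). Of all probesets 40.1% and 30.9% passed there. None of the 4 measured neuronal markers passed in either cohort. The 5 microglial markers, all measured, had a summed level (log2 of the sum) from 9.89 to 10.53 in cohort 7b drinkers and from 10.81 to 10.83 in its controls. That level ran from 10.01 to 10.40 in cohort 7a drinkers and from 10.63 to 11.25 in its controls, and from 10.28 to 10.66 in cohort 5 drinkers and from 10.27 to 10.62 in its controls. Like ADK, it did not overlap in cohorts 7a and 7b and overlapped in cohort 5. Among all single probesets, 11.0% did not overlap in cohort 7a and 43.2% in cohort 7b. The 5 microglial markers did not move alike. AIF1 and P2RY12 were lower over all arrays, by -0.42 and -0.49 (limma adjusted p = 0.00441 and 0.0175), and P2RY12, the brightest of the 5, weighs most in the sum. CX3CR1 and ITGAM differed by -0.21 and -0.25 and CSF1R by 0.040 over all arrays without passing. In cohort 7a AIF1, CX3CR1 and P2RY12 were lower, by -0.54, -0.44 and -0.97 (limma adjusted p = 0.00426, 0.000104 and 4.17e-05). ITGAM and CSF1R differed there by -0.20 and -0.075 without passing. In cohort 7b AIF1 and P2RY12 were lower, by -1.09 and -1.12 (limma adjusted p = 2.01e-05 and 0.000183). CSF1R was higher there by 0.36 (adjusted p = 0.0123), and CX3CR1 and ITGAM differed by -0.26 and -0.21 without passing. The 6 measured of 8 astrocyte markers summed to 14.63 to 14.74 in cohort 7b drinkers and 14.25 to 14.28 in its controls, and to 14.68 to 15.04 in cohort 7a drinkers and 14.63 to 14.87 in its controls. This sum is carried by SLC1A2, SLC1A3 and GFAP, and the astrocyte connexin gene GJB6 went the other way, lower by -0.83 in cohort 7b (adjusted p = 0.00126) and at -0.31 in cohort 7a (adjusted p = 0.117). The 5 endothelial markers summed to 9.95 to 10.10 in cohort 7b drinkers and 10.30 to 10.31 in its controls, and to 10.21 to 10.67 in cohort 7a drinkers and 10.11 to 10.72 in its controls. The part of microglial, astrocyte and endothelial content and of RNA quality in these differences was not tested.

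SLC29A1 was higher in drinkers than in controls in cohorts 7a and 7b, the opposite direction to ADK. For MmuSTS.3871.1.S1_at, cohort 7b drinkers measured 7.21, 7.13, 7.58, 7.35 and 7.40, against 6.90 and 6.89 in the controls. Cohort 7a drinkers ranged from 6.87 to 7.46 with a median of 7.23, against 6.77, 7.13, 6.91 and 6.79 in the controls. Here 11 of the 13 drinkers lay above all 6 controls and none lay below them all. Cohort 5 drinkers ranged from 6.50 to 6.93 with a median of 6.69, against 6.70, 6.74, 6.78, 6.48 and 6.67 in controls, an overlapping range. The differences were 0.43 (SE 0.13) in cohort 7b, 0.33 (SE 0.094) in cohort 7a and 0.037 (SE 0.088) in cohort 5. With the actin value as a covariate the cohort 7a difference was 0.30 (SE 0.11) and fell short of an adjusted p of 0.05, and that of cohort 7b was 0.41 (SE 0.14). Without cohort 7b control 37 or 38 the cohort 7b difference was 0.44 (SE 0.17) or 0.43 (SE 0.17) and also fell short of it.

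The other SLC29A1 probeset, MmugDNA.9754.1.S1_at, was 6.73, 6.97, 7.21, 7.01 and 7.09 in cohort 7b drinkers, against 6.54 and 6.32 in controls. Cohort 7a drinkers ranged from 6.42 to 7.27 with a median of 6.75, against 6.45, 6.72, 6.45 and 6.47 in controls. The groups did not overlap in cohort 7b and overlapped in cohort 7a, where control 26, at 6.72, stood above the other controls. Its differences were 0.57 (SE 0.15) in cohort 7b, 0.24 (SE 0.11) in cohort 7a and -0.014 (SE 0.10) in cohort 5, and without control 38 that of cohort 7b was 0.47 (SE 0.20), short of an adjusted p of 0.05. Both probesets lay higher in cohorts 7a and 7b than in cohorts 4 and 5, among drinkers at 6.86 ± 0.27 (SD, n = 13) against 5.84 ± 0.16 (SD, n = 19) for this one and 7.27 ± 0.19 against 6.73 ± 0.14 for the first. The all-array differences, 0.023 (SE 0.17) and 0.15 (SE 0.098), therefore mix these levels with treatment, since cohort 4 gave drinkers and no control. With cohort as a block they were 0.20 (SE 0.075) and 0.23 (SE 0.062). Within each of the 4 batches of cohorts 7a and 7b with controls, drinkers averaged higher, by 0.11 to 0.57 and by 0.24 to 0.39. As for ADK, these batches held the cohorts unevenly. Within groups the 2 probesets moved together more than those of ADK, with r = 0.57 over 43 arrays.

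NT5E gave different answers by probeset. MmuSTS.1117.1.S1_at, the brightest, was 7.68, 7.58, 7.68, 7.77 and 7.59 in cohort 7b drinkers, against 7.80 and 7.74 in controls. Cohort 7a drinkers ranged from 7.62 to 7.998 with a median of 7.76, against 7.60, 7.80, 7.95 and 7.86 in controls. Cohort 5 drinkers ranged from 7.53 to 7.80 with a median of 7.77, against 7.81, 7.73, 7.82, 7.71 and 7.69 in controls. Drinkers and controls overlapped in each cohort, and the differences were -0.11 (SE 0.095), -0.025 (SE 0.070) and -0.022 (SE 0.065) in cohorts 7b, 7a and 5. With arrays centered on their median the cohort 7a difference was 0.043. MmugDNA.43248.1.S1_at, by contrast, was 6.58, 6.28, 6.90, 6.33 and 6.51 in cohort 7b drinkers, against 7.21 and 6.96 in controls. It ranged from 6.63 to 7.24 with a median of 6.95 in cohort 7a drinkers, against 7.18, 7.43, 7.42 and 7.02 in controls. Of the 13 drinkers, 9 lay below all 6 controls, among them all 5 of cohort 7b. Its differences were -0.57 (SE 0.16) in cohort 7b and -0.32 (SE 0.12) in cohort 7a, and with the actin value as a covariate -0.49 (SE 0.16) and -0.21 (SE 0.13), the last no longer past an adjusted p of 0.05. It also fell short of it at -0.44 (SE 0.21) in cohort 7b without control 37, and in cohort 7a at -0.26 (SE 0.13) and -0.27 (SE 0.13) without control 26 or 27 and at -0.25 (SE 0.11) with arrays centered. Cohort 5 drinkers ranged from 7.03 to 7.51 with a median of 7.25, against 6.91, 7.14, 7.24, 7.09 and 7.21 in controls, an overlap with a difference of 0.13 (SE 0.11). The dimmest, MmugDNA.1580.1.S1_at, had a mean of 3.56, was under 3.5 in 16 of 43 arrays, and differed by -0.17 (SE 0.11), -0.20 (SE 0.081) and -0.15 (SE 0.075) in cohorts 7b, 7a and 5. Between these 3 probesets r within groups ran from -0.042 to 0.097 over 43 arrays.

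ADORA1 did not separate drinkers from controls in any cohort. Its probeset, MmugDNA.1334.1.S1_at, was 7.21, 7.12, 7.44, 7.24 and 7.11 in cohort 7b drinkers, against 7.21 and 7.35 in controls. Cohort 7a drinkers ranged from 6.95 to 7.30 with a median of 7.04, against 7.04, 7.01, 7.05 and 7.04 in controls. Cohort 5 drinkers ranged from 5.91 to 6.37 with a median of 6.26, against 6.05, 6.21, 6.24, 6.21 and 6.02 in controls. Drinkers lay on both sides of the controls each time, and the differences were -0.055 (SE 0.096), 0.022 (SE 0.070) and 0.091 (SE 0.065) in cohorts 7b, 7a and 5. The larger split in ADORA1 ran between sets of cohorts, at 7.12 ± 0.14 in drinkers of cohorts 7a and 7b (SD, n = 13) and 6.20 ± 0.12 in drinkers of cohorts 4 and 5 (SD, n = 19). This carried into the all-array difference of -0.10 (SE 0.17), which stood at 0.036 (SE 0.043) with cohort as a block and 0.016 (SE 0.046) with batch as a block.

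**Figure D3:**
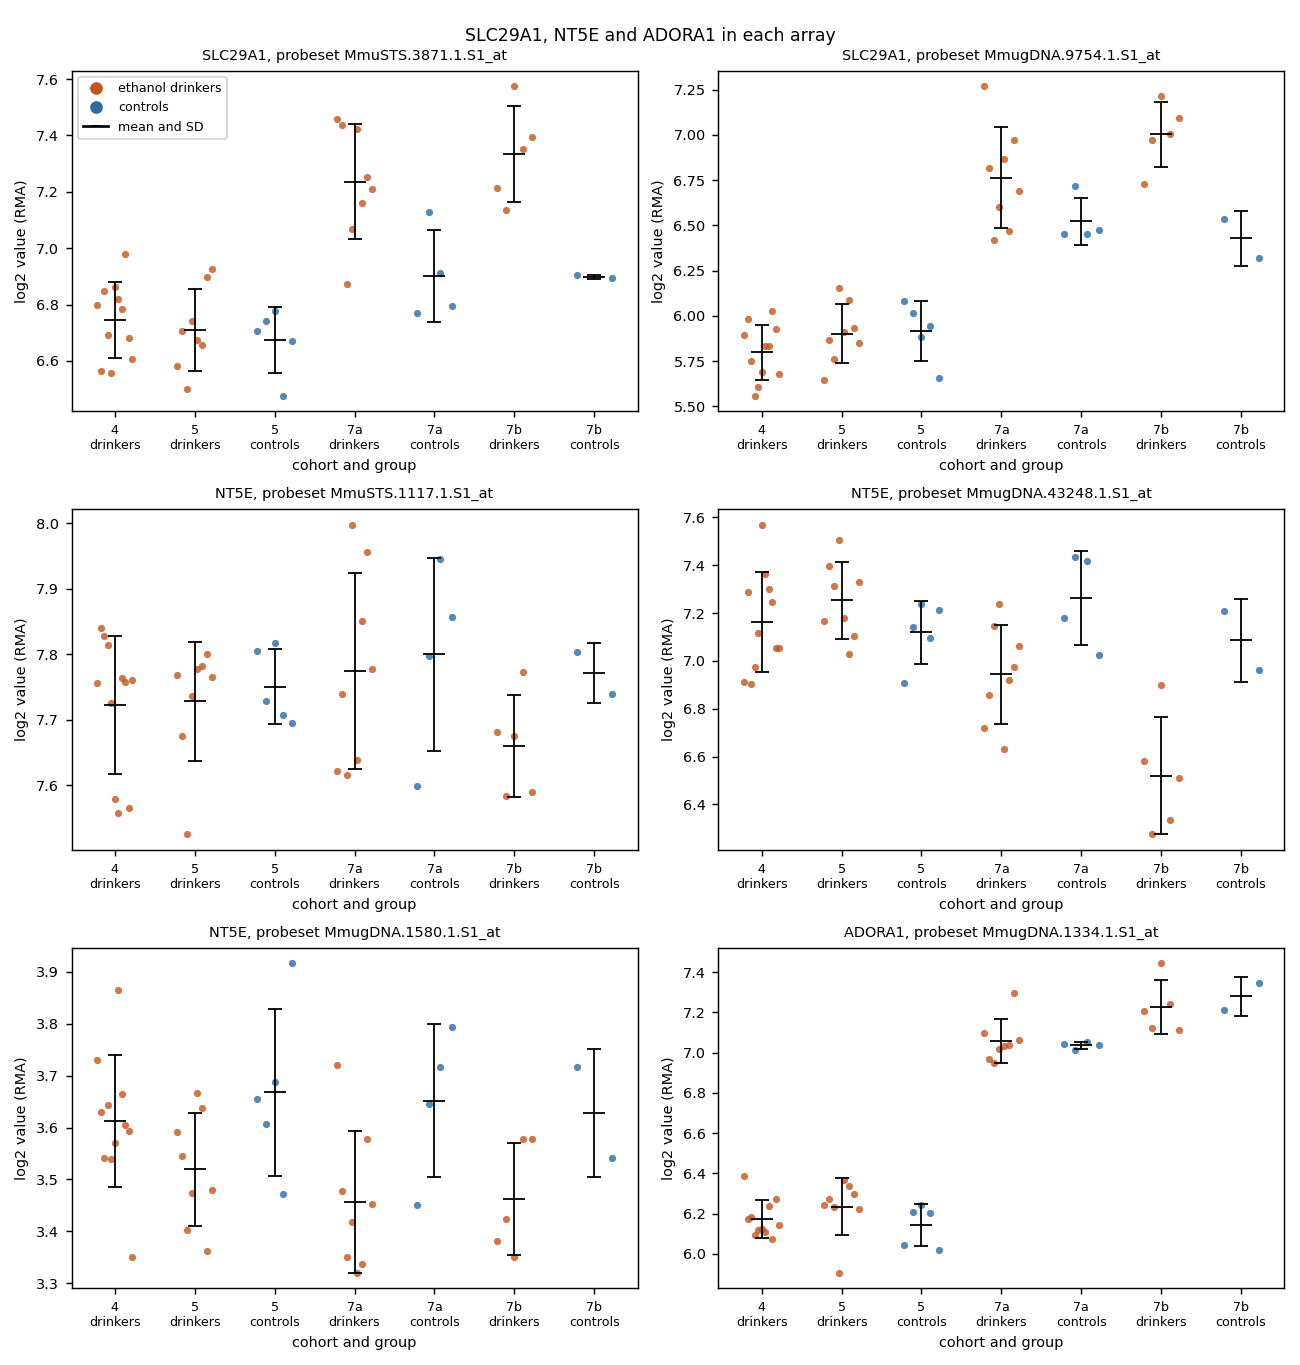
Log2 RMA value (y axis) of the SLC29A1, NT5E and ADORA1 probesets in each array (points), by cohort with drinkers left of controls (x axis), with bars for the mean and SD. SLC29A1 lies higher in drinkers of cohort 7b, from 7.13 to 7.58 for the left probeset, than in its controls at 6.90 and 6.89, and ADORA1 lies near 7.12 in cohorts 7a and 7b and near 6.20 in cohorts 4 and 5 whatever the treatment.

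Counted over the 8 probesets, 2 were past a limma adjusted p of 0.05 over all arrays, both of ADK and both lower, where 16.2% of all 24151 probesets were. That fit has treatment alone, although cohort 4 has no control. With cohort as a block 5 of the 8 were past it, both of SLC29A1 higher and both of ADK and NT5E MmugDNA.1580.1.S1_at lower, where 33.3% of all were, and with batch as a block 4 were, the same without SLC29A1 MmugDNA.9754.1.S1_at, where 22.7% of all were. In cohort 7a 4 were past it, 1 higher and 3 lower, where 30.9% of all were. In cohort 7b 5 were, 2 higher and 3 lower, where 40.1% of all were, and of these 5 only the ADK probesets stayed past it without control 37 and without control 38. In cohort 5 none was, where 0% of all were (limma, 731 of all probesets at an unadjusted p under 0.05). Drinkers and controls did not overlap for 2 of the 8 in cohort 7a (11.0% of all probesets), for 5 in cohort 7b (43.2%), for 2 in cohorts 7a and 7b together (4.80%) and for 0 in cohort 5 (0.166%). Since the genes were chosen on this comparison, nothing is read from these counts. The median difference over the 8 was -0.11 over all arrays, -0.14 in cohort 7b, -0.11 in cohort 7a and -0.02 in cohort 5, beside -0.044, -0.065, -0.068 and 0.0036 over all tested probesets. Over all arrays 1345 probesets of the whole array were higher and 2556 lower in drinkers. With arrays centered on their median 1825 were higher and 1239 lower, so the balance of directions depends on the scaling.

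The gap between cohorts in these drinker minus control differences was -0.61 (SE 0.097) and -0.67 (SE 0.097) for the ADK probesets, taken as the mean of cohorts 7a and 7b minus cohort 5. For SLC29A1 it was 0.35 (SE 0.12) and 0.42 (SE 0.14), for NT5E probeset MmugDNA.43248.1.S1_at it was -0.58 (SE 0.15), and for the others it lay between -0.11 and -0.033. That is 5 of 8 past an adjusted p of 0.05, where 31.6% of all probesets were, and again nothing is read from it.

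**Figure D4:**
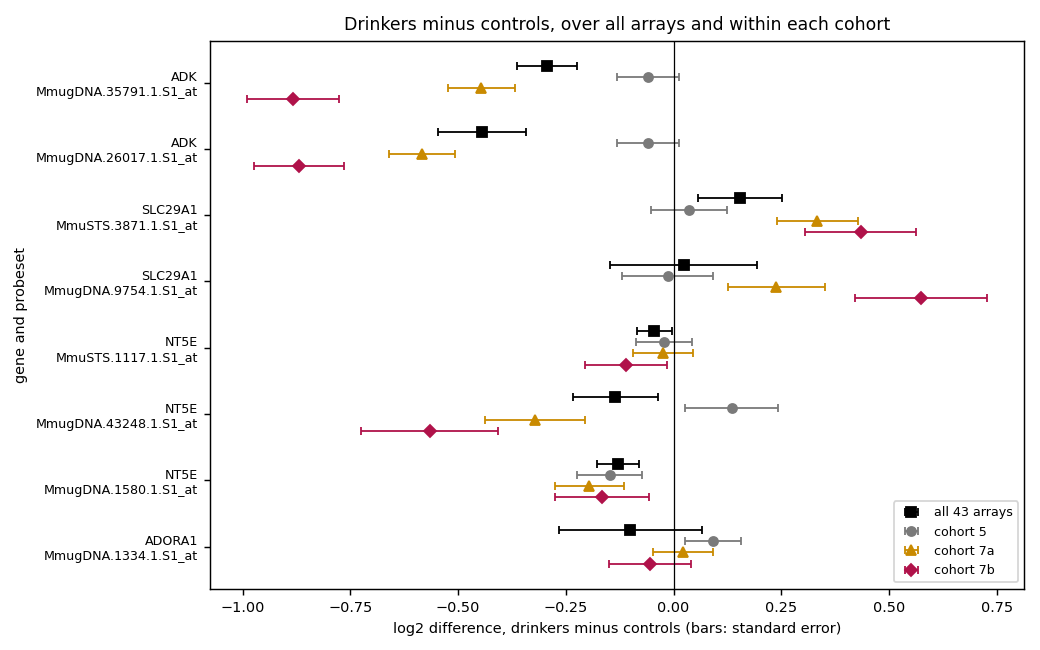
Log2 difference, drinkers minus controls (x axis), with its standard error (bars) for each of the 8 probesets (y axis), over all 43 arrays and within cohorts 5, 7a and 7b. ADK lies left of 0 in cohorts 7a and 7b, at -0.45 and -0.88 for its upper probeset, SLC29A1 lies right of 0 there, and the cohort 5 points lie between -0.15 and 0.13.

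Drinkers could also be compared among themselves, without controls, and here the values were tested with limma over all 24151 probesets. The same drinker arrays entered the comparison with controls that was known when the genes were chosen. These tests are therefore not free of that choice. Between drinkers of cohort 7b and those of cohort 7a, 1 of the 8 probesets passed (11.9% of all did). It was NT5E MmugDNA.43248.1.S1_at, at 6.52 ± 0.25 in cohort 7b (SD, n = 5) and 6.94 ± 0.21 in cohort 7a (SD, n = 8), a difference of -0.42 (SE 0.11, adjusted p = 0.00723). The other NT5E probesets differed by -0.11 (SE 0.065, adjusted p = 0.262) and 0.0057 (SE 0.075, adjusted p = 0.973). Without any 1 of the 5 cohort 7b drinkers the difference of MmugDNA.43248.1.S1_at stayed between -0.52 and -0.36, with adjusted p up to 0.0363. These drinkers were spread unevenly over batches. Batches 5 and 7 held 2 and 3 drinkers of cohort 7a and none of cohort 7b, and batch 8 held 3 of cohort 7b and 1 of cohort 7a. Drinkers averaged 7.00 and 6.93 in batches 5 and 7, and 6.65, 6.63 and 6.70 in batches 4, 6 and 8. The part of batch in this difference was not tested. ADORA1 was 7.225 ± 0.13 in cohort 7b and 7.06 ± 0.11 in cohort 7a drinkers, a difference of 0.17 (SE 0.065) that did not pass (adjusted p = 0.0859), and SLC29A1 differed by 0.24 (SE 0.10, adjusted p = 0.129) and 0.098 (SE 0.088, adjusted p = 0.512). ADK differed by -0.0003 (SE 0.072, adjusted p = 0.998) and 0.022 (SE 0.072, adjusted p = 0.881), so that the wider ADK gap in cohort 7b than in cohort 7a lay in the controls, at 9.17 and 8.73 for the first probeset. Between drinkers of cohort 5 and cohort 4, which were processed in the same batches, none of the 8 passed (0% of all probesets did, 909 at an unadjusted p under 0.05), and the differences lay between -0.093 and 0.10.

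For 1 probeset of each of the 4 genes, the one with the highest mean, the genes that followed it most closely over the 43 arrays were found after group means were taken off. Since the other probesets of ADK and NT5E did not follow these (r = 0.096 for ADK, -0.006 and 0.097 for NT5E), the lists describe a probeset rather than a gene. For ADK they were SAR1B (r = 0.70), NNT (0.69), CLIP1 (0.66), RCHY1 (0.65) and ACTR6 (0.63). For SLC29A1 they were MRPL2 (0.72), TACC3 (0.62), TNNT2, FAM156A and PDCL (0.59 to 0.60). For NT5E they were KPNA6 (0.71), PPIE, SPG7, SCAND3 and LOC715442 (0.65 to 0.66), and for ADORA1 PCSK2 (0.64), USP33 (0.63), AMD1, RPRD1A and LOC716915 (0.60 to 0.61). No gene stood in more than 1 of these lists, and within groups the highest r between probesets of different members was 0.37, between MmugDNA.26017.1.S1_at of ADK and ADORA1. Arrays share batches and RNA quality, so these values describe the arrays and carry no test.

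A list of 55 other symbols covered genes of adenosine, AMP and ATP turnover, with CECR1 and NT5C3 as older symbols of ADA2 and NT5C3A. From this list 40 genes were measured. Of these 1 was higher and 4 were lower in drinkers over all arrays (limma, adjusted over all probesets), next to 16.2% of all probesets. Their median difference was 0.0019. This fit has treatment alone, although cohort 4 has no control. ADA, the deaminase that turns adenosine into inosine and so shares the clearance of adenosine with ADK, was 7.82 ± 0.20 in drinkers (SD, n = 32) and 7.56 ± 0.28 in the 11 controls, higher by 0.26 (SE 0.076, adjusted p = 0.0179). It was also the only one of the 5 with a difference of like size in cohort 5, at 0.20 (SE 0.085) without passing there, beside 0.38 (SE 0.12) in cohort 7b and 0.23 (SE 0.091) in cohort 7a. The other 2 ADA probesets differed by 0.11 (adjusted p = 0.184) and -0.043 (adjusted p = 0.623) and did not pass, so the call rests on 1 probeset.

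PNP, the phosphorylase that splits inosine after ADA, fell by 0.36 (SE 0.12, adjusted p = 0.0316), at 8.01 ± 0.24 in drinkers and 8.37 ± 0.56 in controls. In cohorts 7a and 7b it ranged from 7.59 to 8.52 with a median of 8.03 in 13 drinkers and from 8.30 to 9.57 with a median of 8.67 in 6 controls, and these overlap. The highest control, number 28 of cohort 7a, lay at 9.57, and without it the difference was -0.24 and did not pass. AHCY, the hydrolase that frees adenosine from S-adenosylhomocysteine, fell by 0.16 (SE 0.048, adjusted p = 0.0178), at 8.52 ± 0.11 in drinkers and 8.68 ± 0.19 in controls. NT5C, a nucleotidase of the cytosol, fell by 0.16 (SE 0.053, adjusted p = 0.0297), and its other probeset, at -0.16 (SE 0.064), did not pass (adjusted p = 0.0814). ADORA2B, the low-affinity A2B receptor, fell by 0.22 (SE 0.074, adjusted p = 0.0325), at 8.11 ± 0.20 in drinkers and 8.33 ± 0.24 in controls. In cohorts 7a and 7b it ranged from 7.80 to 8.39 with a median of 7.89 in drinkers and from 8.26 to 8.80 with a median of 8.47 in controls. With arrays centered on their median, none of these 4 lower genes passed, at -0.30 for PNP, -0.097 for AHCY, -0.098 for NT5C and -0.16 for ADORA2B, while ADA did. Without cohort 7b control 37 or control 38 none of the 5 genes passed. For the receptors ADORA2A and ADORA3 and the transporters SLC29A2 and SLC28A1 no probeset was assigned in the probe table used here.

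The other nucleoside transporters did not pass over all arrays: SLC29A3 of lysosomes differed by 0.0063 (SE 0.042, adjusted p = 0.935), SLC29A4, which also carries monoamines, by 0.16 (SE 0.083, adjusted p = 0.167), and the sodium-coupled SLC28A2 and SLC28A3 by 0.075 (SE 0.061, adjusted p = 0.418) and 0.012 (SE 0.041, adjusted p = 0.867). That fit has treatment alone, and SLC29A4 averaged 7.84 in drinkers of cohorts 4 and 5, against 8.24 and 8.18 in those of cohorts 7a and 7b. Its all-array difference therefore mixes these levels with treatment. SLC29A4 resembled SLC29A1 in cohort 7b, where it was higher by 0.67 (SE 0.13, adjusted p = 5.36e-05), with 8.01 to 8.36 in 5 drinkers against 7.43 and 7.58 in the controls. In cohort 7a it differed by 0.23 (SE 0.096, adjusted p = 0.0638) and in cohort 5 by 0.031 (SE 0.089). SLC28A2 and SLC28A3, which lay near the low limit with means of 3.85 and 3.89, were higher in cohort 7b by 0.38 and 0.25 (adjusted p = 0.00778 and 0.0250), and SLC29A3 was lower there by -0.20 (adjusted p = 0.0304).

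By cohort, 6 of the 40 genes were higher and 9 lower in cohort 7b, 1 was higher and 5 lower in cohort 7a, and none passed in cohort 5, beside 40.1%, 30.9% and 0% of all probesets. AMPD2, an AMP deaminase that diverts AMP from adenosine, was higher by 0.46 (SE 0.070, adjusted p = 9.8e-07) in cohort 7b and differed by 0.0099 in cohort 7a. ENTPD1 (CD39), which supplies AMP to CD73 and in brain marks microglia, fell by 0.30 (SE 0.093, adjusted p = 0.0108) in cohort 7a, and differed by -0.096 (SE 0.13, adjusted p = 0.593) in cohort 7b and 0.063 (SE 0.086) in cohort 5. PRKAA1, a catalytic subunit of the AMP-activated kinase, fell by 0.49 (SE 0.13, adjusted p = 0.00165) in cohort 7b. The other catalytic subunit, PRKAA2, differed by -0.024 (SE 0.24, limma adjusted p = 0.952) in cohort 7b and by 0.37 (SE 0.18, limma adjusted p = 0.111) in cohort 7a. For ENTPD1 and PRKAA1 these values are of the brightest of 3 and of 5 probesets, and the others are not given here. None of the 9 measured ectonucleotidases other than CD73 passed over all arrays.

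**Figure D5:**
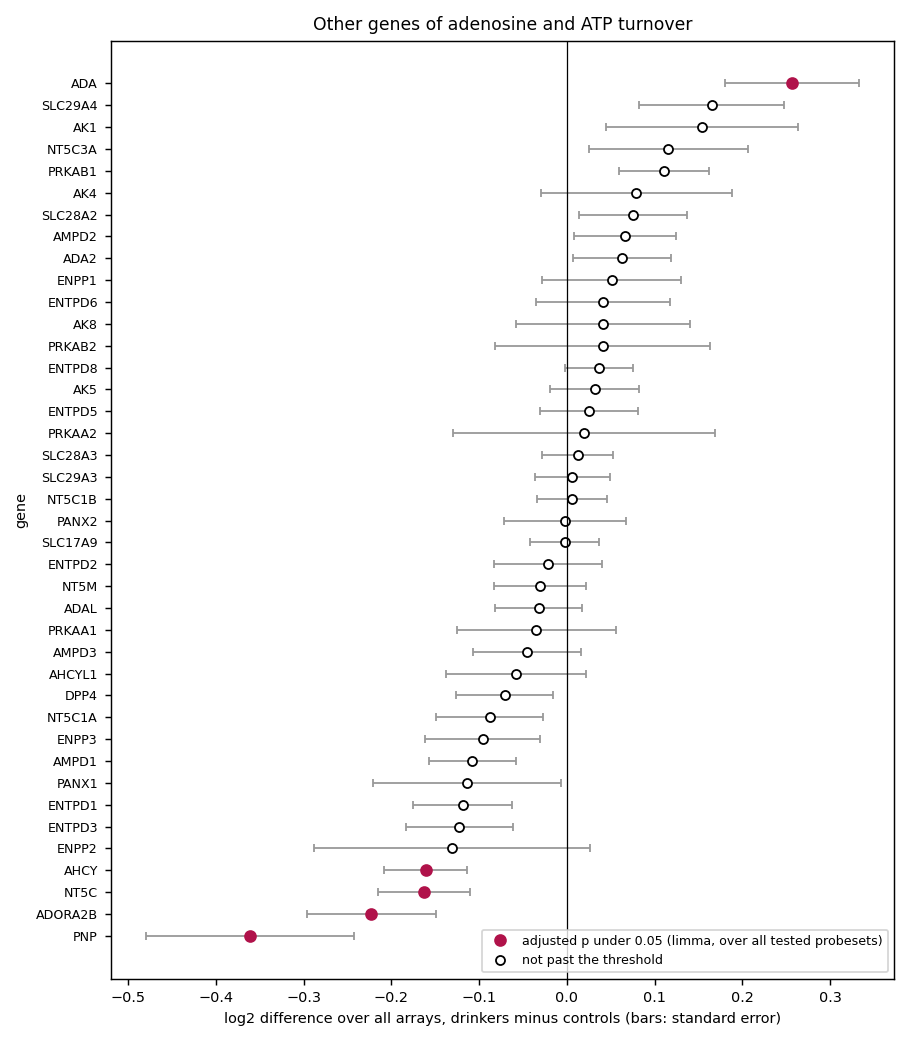
Log2 difference over all arrays, drinkers minus controls (x axis), with its standard error (bars), for the 40 measured genes of adenosine and ATP turnover other than the 4 described above (y axis). Filled points are past an adjusted p of 0.05, namely ADA at 0.26 and AHCY, NT5C, ADORA2B and PNP from -0.16 to -0.36.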

How the data were processed

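The authors hybridized RNA of 43 animals to Affymetrix rhesus macaque arrays and deposited log2 expression values summarized by RMA over all arrays, without batch adjustment. Probesets were named from GEO's platform annotation, and those under 3.5 in at least 80% of arrays were left out. Of 25317 probesets with a gene symbol, 24151 were tested. Drinkers and controls were compared with limma 3.58.1 in R 4.3.3, over all arrays in a fit with treatment alone, and within cohorts and among drinkers as contrasts of 7 group means, with Benjamini-Hochberg adjustment over all tested probesets. Each array is 1 animal. The 8 processing batches were recovered with 912 probesets of the study's batch-adjusted values. In the 7 batches with 4 or more arrays, these departed from a line within a batch by at most 6.92e-05. Batch 5, with 1 control and 2 drinkers of cohort 7a, was too small for this check. The fit was tested on simulated data that held no shift between cohorts or batches, so that test does not cover such shifts.

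The genes and the lists were chosen with earlier results of these data known. Named were all probesets of the 4 genes, pathway genes past the threshold over all arrays (at most 10 in each direction), all measured adenosine receptors and nucleoside transporters, and the 5 genes most like each member. Other genes named were chosen after their values were seen. For a gene of a list, the probeset with the highest mean stood for it. Alternatives were no filter on low values, centering of arrays, an intensity trend, cohort or batch as a block, the actin value as a covariate, cohorts left out or fitted alone, and each array of groups of up to 5 left out. Fits of cohorts 5, 7a and 7b with cohort as a block, and of batches 1 to 3 and 4 to 8 apart, were added after seeing the data.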

Additional observations from a re-analysis of the deposited data

Results flagged for a closer look

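In groups of 4 to 10 arrays, 8 of 85 combinations of probeset and group held an array far from the others, and chance gives about 1 in 20. In cohort 5 drinkers, animal 20 was lowest for ADK probeset MmugDNA.26017.1.S1_at at 7.20 (next 7.36) and for ADORA1 at 5.91 (next 6.22), and animal 19 was lowest for NT5E probeset MmuSTS.1117.1.S1_at at 7.53 (next 7.67). In cohort 7a drinkers, animal 35 was highest for ADORA1 at 7.30 (next 7.10), and among cohort 7a controls animal 26 was highest for SLC29A1 probeset MmugDNA.9754.1.S1_at at 6.72 (next 6.47). Among the pathway genes, animal 31 of the cohort 7a drinkers was lowest for SLC29A4 at 7.92 (next 8.19), control 28 of cohort 7a was highest for PNP at 9.57 (next 8.48), and animal 21 of the cohort 5 drinkers was highest for AHCY at 8.71 (next 8.52).

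For 5 of 9 named pathway genes the drinker minus control difference differed between cohorts 7a and 7b, taken as their mean, and cohort 5 (limma contrast, adjusted over all probesets, of which 31.6% passed). These 9 were partly named for passing the comparison over all arrays, and of all 40 measured pathway genes 2 passed as higher and 6 as lower. The gap was -0.64 for ADORA2B (adjusted p = 0.000137), -0.45 for NT5C (adjusted p = 1.08e-05), -0.84 for PNP (adjusted p = 0.00118), -0.31 for AHCY (adjusted p = 0.00191) and 0.42 for SLC29A4 (adjusted p = 0.00626). For ADA it was 0.11 and did not pass (adjusted p = 0.505). Cohorts 7a and 7b were processed with another RNA kit and in other batches than cohort 5, and cohort, kit and batch cannot be told apart here.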

How the results depend on the processing

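The ADK difference over all arrays (-0.29 for MmugDNA.35791.1.S1_at) was -0.44 with the other probeset, -0.030 in batches 1 to 3 and -0.58 in batches 4 to 8, and lay between -0.33 and -0.24 without single arrays. That of SLC29A1 (0.15) was 0.33 in batches 4 to 8 and lay between 0.12 and 0.19 without single arrays, and that of NT5E lay between -0.062 and -0.028. ADORA1 (-0.10) turned positive with cohort as a block at 0.036, with batch at 0.016, with cohort and actin at 0.066, without cohort 4 at 0.11, in cohorts 5, 7a and 7b with cohort as a block at 0.036 and in batches 1 to 3 at 0.045, and lay between -0.17 and -0.033 without single arrays. In batches 1 to 3 the lower pathway genes were at 0.032 (ADORA2B), 0.0032 (NT5C), 0.075 (PNP) and 0.0089 (AHCY). The cause of these shifts was not tested.

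The count of probesets past the threshold over all arrays (3901) was 8043 with cohort as a block, 2339 without cohort 4, 7143 in cohorts 5, 7a and 7b with cohort as a block, 7650 in batches 4 to 8 and 0 in batches 1 to 3, where limma gave 1120 at an unadjusted p under 0.05. Without cohort 7b control 37 or 38 it was 1719 or 1748, and without cohort 7a control 27 or 28 it was 2507 or 2555, within a range up to 5114. Leaving out single arrays gave 5608 to 7693 in cohort 7a, 6726 to 9832 in cohort 7b, 2217 to 3134 between drinkers of cohorts 7b and 7a, and 6457 to 7798 for the difference between cohorts. In cohort 5, and between drinkers of cohorts 5 and 4, it gave 0 to 0 (731 and 909 at an unadjusted p under 0.05 with all arrays). Cohort 5 fitted alone gave 1, and cohort 7a with the actin value gave 4712. Where an array left cohort 7b with 1 control, that control was assumed to vary like the other groups. With arrays centered, higher and lower calls were 3632 and 3011 in cohort 7a, 4846 and 4845 in cohort 7b, 1456 and 1279 between drinkers of cohorts 7b and 7a, and 3629 and 3496 for the difference between cohorts, against 2566 and 4902, 3383 and 6311, 1096 and 1769, and 2482 and 5151 as deposited. No paired analysis was possible because the labels do not say which control was matched to which drinker.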
